A study of Mus musculus with 48 samples.

Results

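The nuclear genes of respiratory complex III, cytochrome c, complex IV and ATP synthase were described in ribosome-bound RNA of mouse astrocytes. The 45 genes are the protein-coding genes whose symbol begins with Uqcr, with Cox followed by a digit from 4 to 8, or with Atp5, together with Cyc1 and Cycs, out of 47643 genes listed in each count file. They hold 9 genes of complex III, 1 of cytochrome c, 17 of complex IV, 17 of ATP synthase and 1 gene related to the COX7A subunits of complex IV, and 7 further matching symbols that are not protein-coding were left out.

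All samples came from dorsal hippocampus of transgenic mice of the line Tg(Aldh1l1-eGFP/Rpl10a) JD130Htz, in which the astrocyte promoter Aldh1l1 drives the ribosomal protein L10a tagged with green fluorescent protein (GFP). Ribosomes were pulled down with an antibody to GFP, a method called translating ribosome affinity purification, and the bound RNA was amplified and sequenced. The compared materials were labelled as full astrocytes (Astro) and as perisynaptic processes of astrocytes (PAP), thin extensions around synapses, and each of 3 animals gave both. All groups shared the transgene, tissue and antibody; how the PAP material was prepared, and the animals' age and treatment, are not given in the sources used here. The 48 samples are 8 technical replicates of each animal and compartment, which were summed to 6 libraries, so n = 3 throughout.

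Complex III passes electrons from ubiquinol to cytochrome c, and complex IV passes them from cytochrome c to oxygen; both pump protons out of the mitochondrial matrix. ATP synthase lets the protons back through a ring of c subunits in the membrane, which turns a shaft inside the catalytic F1 head, while a peripheral stalk keeps the head from turning along. Most subunits are made from nuclear genes in the cytosol and imported, and a few core subunits are encoded in mitochondrial DNA. Several nuclear subunits have a widely expressed form and a form restricted to certain tissues or conditions, such as heart, skeletal muscle, testis or low oxygen.

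Libraries held 18707844 to 20293538 counts in Astro and 1829962 to 2980984 in PAP, so depth and compartment cannot be told apart at full depth. Levels below are CPM (a count divided by the library size, on the same scale for every library), corrected by edgeR's TMM factors. On that scale a floor of 3 counts was 0.152 to 0.175 CPM in Astro and 0.987 to 1.54 CPM in PAP. The relative spread between animals, as edgeR's biological coefficient of variation, was 0.335 in Astro and 1.61 in PAP. All 12 astrocyte markers were lower in every PAP library than in any Astro library. The same held for 35.1% of all tested genes and 49.5% of those with an Astro mean of at least 100 CPM. The summed level of the 12 markers was 23460 to 32180 CPM in Astro and 3720 to 12570 CPM in PAP. Of these 12, the edgeR test called 6 lower, beside 15.4% of all tested genes. Among 6 markers of B-lineage cells, Cd79a and Ighm were at 0 in all PAP libraries while the summed level was 38.5 to 61.6 CPM in Astro and 2692 to 5684 CPM in PAP. The part of either list in the results below was not tested. In a pulldown from tissue, fewer cells of a type and less RNA per cell cannot be told apart.

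Promoter sequences bear on genes that are often described together, because the factor NRF1 and ETS-family factors such as GABP are known to act at promoters of respiratory genes. RefSeq promoter entries on build GRCm38.p6 were matched for 32 of the 45 genes. In the 250 bases before the start, searched on both strands and counting a gene once, the NRF1 word GCATGCGC was present in 5 of the 32 genes (15.6%) and in 2.56% of 27025 genes. The ETS word CCGGAAG was present in 8 of the 32 (25%) and in 7.83% of all genes. The word TATAAA was present in 2 of the 32 (6.25%) and in 14.3% of all genes. A match is a description of letters and not evidence of binding. The 120 bases before the start are printed 5′ to 3′, with NRF1 and ETS words in capitals, for Cycs and Atp5k (an NRF1 word), for Cox6a1 and Uqcrh (an ETS word), and for Cox7a2l and Cox7b2, which rose and fell in PAP and have neither word in the stretch shown. In the order given they lie on the minus strand at chr6:50566570-50566689, chr5:108434400-108434519, chr5:115348959-115349078, chr4:116075071-116075190, chr17:83514334-83514453 and chr5:71548206-71548325.
Cycs: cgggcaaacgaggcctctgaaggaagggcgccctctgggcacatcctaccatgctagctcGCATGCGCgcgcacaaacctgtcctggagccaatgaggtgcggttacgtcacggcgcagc
Atp5k: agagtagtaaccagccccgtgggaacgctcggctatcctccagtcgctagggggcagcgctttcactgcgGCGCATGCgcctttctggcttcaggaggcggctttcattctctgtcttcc
Cox6a1: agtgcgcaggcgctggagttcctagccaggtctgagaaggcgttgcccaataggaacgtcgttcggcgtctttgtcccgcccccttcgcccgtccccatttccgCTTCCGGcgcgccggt
Uqcrh: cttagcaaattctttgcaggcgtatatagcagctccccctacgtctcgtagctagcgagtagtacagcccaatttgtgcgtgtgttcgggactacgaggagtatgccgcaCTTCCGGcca
Cox7a2l: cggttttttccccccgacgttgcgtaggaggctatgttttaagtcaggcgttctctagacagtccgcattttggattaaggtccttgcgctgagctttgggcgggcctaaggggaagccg
Cox7b2: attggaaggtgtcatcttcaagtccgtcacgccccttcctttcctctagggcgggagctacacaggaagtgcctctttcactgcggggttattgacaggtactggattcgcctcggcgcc

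Across the 3 complexes, the design asked which of these messages differ in abundance between the processes and the full astrocyte. Of the 45 genes, 44 were tested and Cox8c, a complex IV isoform known from testis, was at 0 in all 6 libraries. The edgeR quasi-likelihood test called 3 genes higher in PAP (Atp5a1, Cox7a2l and Cox6a2) and 3 lower (Cox5a, Atp5f1 and Cox7b2) at an adjusted p under 0.05. That is 6.82% in each direction, beside 5.92% of all 14618 tested genes called higher and 15.4% called lower. The fitted log2 fold change was negative for 35 of the 44 genes (79.5%) and for 60.9% of all tested genes. Among tested genes with an Astro mean of at least 100 CPM it was negative for 1799 of 2240, and for 30 of the 34 of these genes that reach that mean. Of the 44 genes, 32 were negative under scaling by library totals and 30 at equal depth. The median was -0.55 for the 44 genes and -0.53 for all tested genes, and with the animal as a block it was -0.60 and -1.63 (-0.61 and -1.62 with voom). PAP libraries lay all below the Astro libraries for 22 genes (50%, beside 35.1% of all tested genes) and all above for 5 genes (11.4%, beside 10.9%).

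With the animal as a block, edgeR called none of the 44 genes at an adjusted p under 0.05, beside 0.876% of all tested genes called higher, 0.0342% called lower and 0.91% in either direction. At an unadjusted p under 0.05 it gave 3 higher and 4 lower, beside 5.42% and 17.9% of all tested genes. The DESeq2 Wald test called 5 higher and 13 lower, beside 11.8% and 24.2% of the 14298 genes to which it gave an adjusted p. With limma voom and a variance weight per compartment, 3 were called higher and 2 lower, beside 4.13% and 19.9% of all tested genes. With correction for GC content and length, edgeR called 3 higher and 11 lower, beside 5.71% and 15.7%. When Astro animal 1, 2 or 3 was left out, edgeR called 0 of the genes in each case, beside 0.889%, 0.993% and 1.09% of all genes tested then. Without PAP animal 1, 2 or 3 it called 4, 5 and 4 genes higher, beside 5.75%, 6.74% and 7.57%, and 6, 4 and 8 lower, beside 19.6%, 17.8% and 20.2%.

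**Figure D1:**
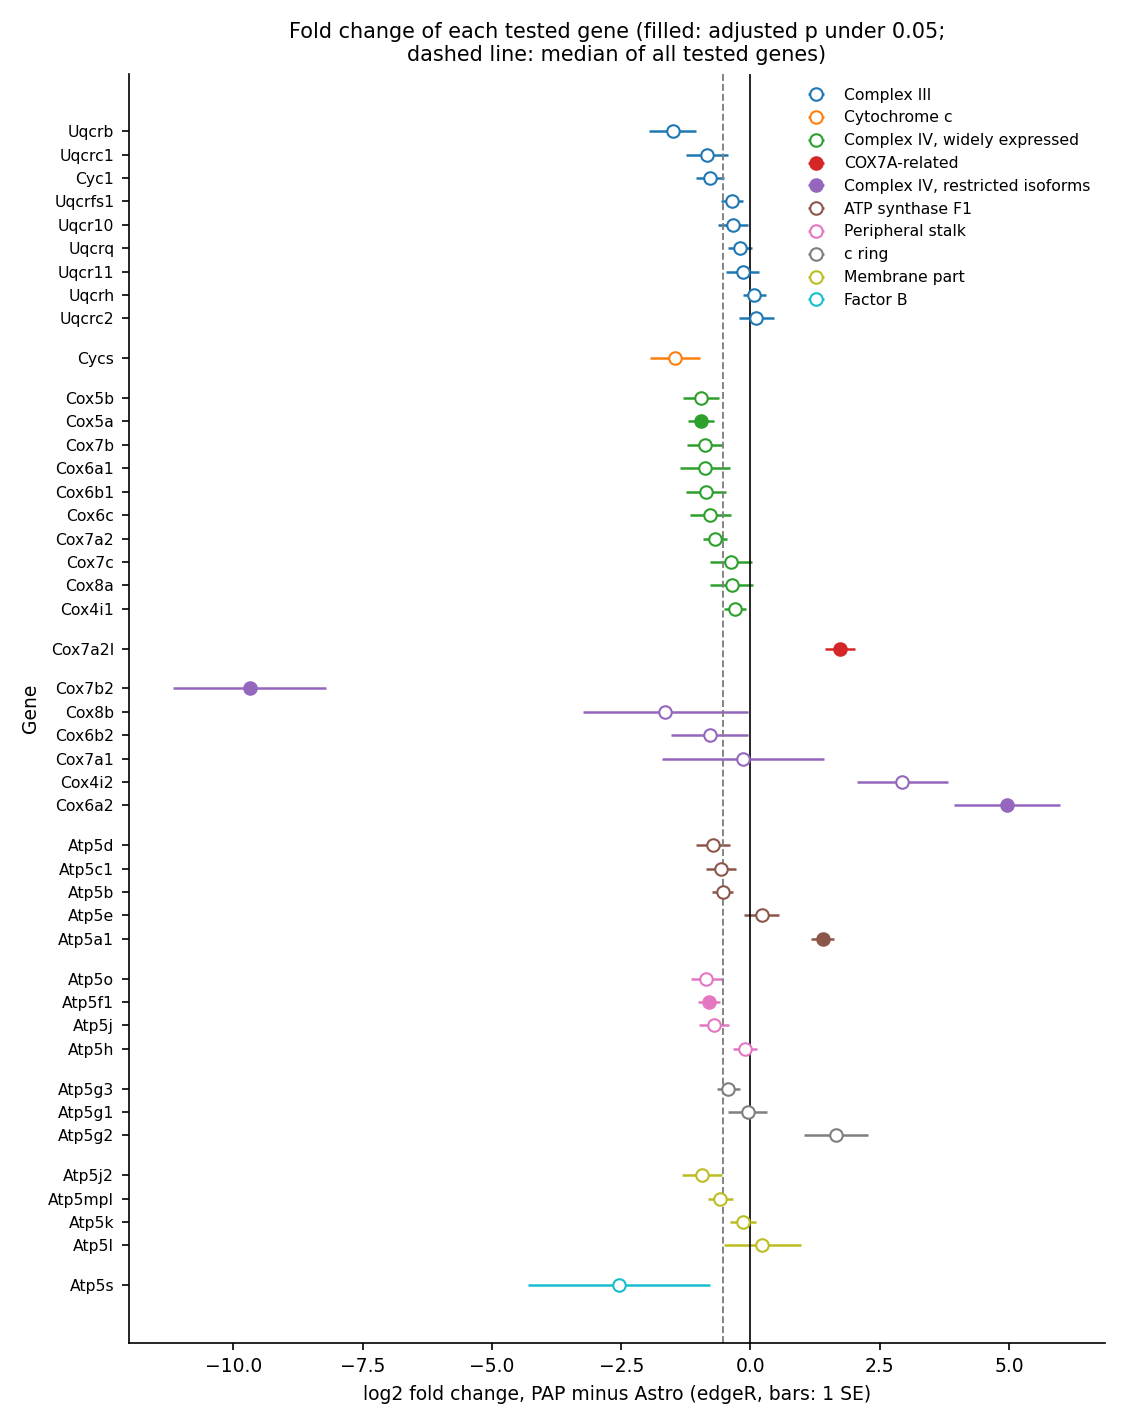
Log2 fold change of PAP minus Astro for the 44 tested genes, grouped by role, with 1 standard error; filled points have an edgeR adjusted p under 0.05, and the dashed line is the median of all tested genes (-0.53). The 10 widely expressed complex IV genes all lie left of 0, the filled points right of 0 are Cox7a2l, Cox6a2 and Atp5a1, and the far left value of Cox7b2 depends on the prior count because its PAP libraries are all at 0.

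By complex, the share of all counts was lower in PAP than in Astro of the same animal for complexes III and IV in all 3 animals, and on that total the compartments did not overlap for complex IV. Complex IV genes made up 0.664%, 0.736% and 0.708% of the Astro counts of animals 1, 2 and 3, and 0.327%, 0.569% and 0.624% of their PAP counts. The PAP libraries were lower in all 3 animals, and PAP animal 1 was the lowest of the 6. Its 95% Wilson interval was 0.319% to 0.336%; such intervals and the floors cover counting error only. Means were 0.703% ± 0.036 in Astro and 0.507% ± 0.158 in PAP (SD, n = 3).

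ATP synthase genes took 0.945%, 0.933% and 1.02% of Astro counts and 0.954%, 0.857% and 0.915% of PAP counts. The compartments overlapped, and in animal 1 the share in PAP was 1.01 times that in Astro. Complex III genes took 0.361%, 0.3999% and 0.409% in Astro and 0.294%, 0.383% and 0.324% in PAP, which also overlapped. The 45 genes together made up 2.08% ± 0.087 of Astro counts and 1.79% ± 0.154 of PAP counts (SD, n = 3). When the total was limited to protein-coding genes without ribosomal protein and mitochondrially encoded genes, the shares were 2.17% ± 0.091 and 2.09% ± 0.135 for all 45 genes, and complex IV took 0.730% in Astro and 0.591% in PAP. On that total the complex IV shares overlapped (0.7065% in PAP animal 3 and 0.690% in Astro animal 1), and the complex III share of animal 2 was higher in PAP, at 0.453% beside 0.415%.

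**Figure D2:**
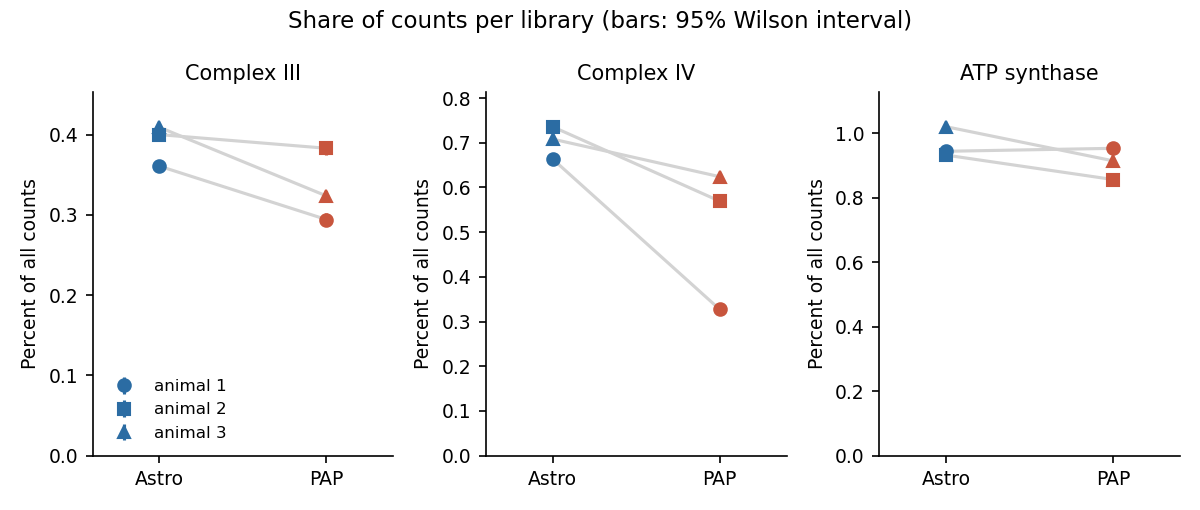
Percent of all counts in complex III, complex IV and ATP synthase genes in the Astro and PAP libraries of each animal, joined by animal, with 95% Wilson intervals that are mostly smaller than the symbols. The complex IV share is lower in PAP in each animal (0.664% to 0.327% in animal 1), while the ATP synthase shares overlap.

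None of the 9 complex III genes was called by edgeR, beside 5.92% of all tested genes higher and 15.4% lower, and DESeq2's Wald test called 3 lower, beside 24.2%. At an unadjusted p under 0.05 edgeR gave 0 higher and 2 lower, beside 9.39% and 21.5% of all tested genes. Their median log2 fold change was -0.34, 7 of the 9 were negative (5 at equal depth), and PAP libraries lay all below Astro for 4 genes, beside 35.1% of all tested genes. Uqcrb, which codes for a small subunit at the ubiquinone-binding side of the complex, was at 436, 529 and 438 CPM in Astro and at 86.8, 265 and 141 CPM in PAP. All 3 PAP libraries were below the Astro libraries, yet the PAP libraries differed among themselves and the log2 fold change of -1.51 ± 0.45 (SE) did not pass the edgeR test (adjusted p = 0.0595). Uqcrb was called lower by DESeq2's Wald test (adjusted p = 0.00553), and by edgeR without PAP animal 2 (-2.09, adjusted p = 0.0227) and in technical replicates 1 to 4 (adjusted p = 0.0474). Transcripts of Uqcrb share 43.4% of their 50-base stretches with 5 other genes, so its own count is uncertain.

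The genes of the 2 core proteins of complex III did not pass the edgeR test, except Uqcrc1 when PAP animal 2 was left out (log2 fold change -1.40, adjusted p = 0.0257). Uqcrc1 was at 376, 390 and 464 CPM in Astro and 171, 363 and 154 CPM in PAP, and Uqcrc2 was at 245, 192 and 249 CPM in Astro and 198.5, 195 and 349 CPM in PAP. Uqcrc1 was lower in every PAP library, while the compartments overlapped for Uqcrc2. Of the catalytic subunits, Uqcrfs1, the Rieske iron-sulfur protein, was among the steadiest genes, at 497, 487 and 495 CPM in Astro and 363.5, 377.5 and 412 CPM in PAP (log2 fold change -0.36 ± 0.22 SE, adjusted p = 0.349). Cyc1, which codes for cytochrome c1, was at 369, 369 and 400 CPM in Astro and 278, 191 and 192 CPM in PAP (-0.78 ± 0.28, adjusted p = 0.103). Both lay below Astro in all PAP libraries, and neither passed the edgeR test, while DESeq2's Wald test called Cyc1 (adjusted p = 0.00704) and Uqcrfs1 (adjusted p = 0.0208) lower. Without PAP animal 1, edgeR called Cyc1 lower as well (-1.03, adjusted p = 0.0290).

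The remaining small subunits of complex III were not called by edgeR without correction for GC content and length. Uqcrq had the highest level per kilobase of transcript in Astro among the complex III genes, 1285 CPM per kb, next to 1275 CPM per kb for Uqcr10; its transcript length is ambiguous in the annotation. Uqcrq was at 473, 610 and 478 CPM in Astro and 435, 479 and 449 CPM in PAP, and the compartments overlapped. Uqcr10, Uqcr11 and Uqcrh overlapped too, with log2 fold changes of -0.34, -0.15 and 0.08, of which those of Uqcr11 and Uqcrh changed sign under other settings. With GC and length correction, edgeR called Uqcr10 (-1.33, adjusted p = 0.0265), Uqcr11 (-0.999, adjusted p = 0.0368) and Uqcrb (-1.88, adjusted p = 0.0258) lower. Uqcrh codes for the hinge protein that helps cytochrome c1 meet cytochrome c, and it was at 529, 620 and 537 CPM in Astro and 524.5, 688 and 562.7 CPM in PAP.

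Cycs codes for somatic cytochrome c, the carrier between complexes III and IV. It was at 174, 188.5 and 181 CPM in Astro and 62.5, 34.9 and 101.0 CPM in PAP. Every PAP library was below every Astro library, and the log2 fold change was -1.46 ± 0.48 (SE, edgeR adjusted p = 0.0853, or 0.00382 by DESeq2's Wald test). Without PAP animal 3 and in technical replicates 5 to 8, edgeR called Cycs lower (adjusted p of 0.0243 and 0.0475). Cycs shares 28.5% of its 50-base stretches with 76 other genes, the most of the 45 genes.

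The 10 widely expressed complex IV genes all had negative fitted fold changes, from -0.96 to -0.30 on the log2 scale with a median of -0.82, and they stayed negative under all 19 alternatives of scaling, filtering, depth, tool and left-out library. Their median minus that of all tested genes was -0.30, but it turned to 0.71 with the animal as a block, 0.75 with voom, 0.31 without PAP animal 1 and 0.05 without a filter. Under scaling by library totals alone the median of all tested genes moved to -0.38 and theirs to -0.68. PAP libraries lay all below Astro for 7 of the 10, beside 35.1% of all tested genes and 49.5% of those with an Astro mean of at least 100 CPM. Lower calls were 1 of the 10 by edgeR (Cox5a), beside 15.4% of all tested genes, and 4 by DESeq2's Wald test, beside 24.2%.

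Cox5a, a matrix-side subunit, was at 696.5, 614 and 606 CPM in Astro and at 364.5, 262 and 365 CPM in PAP. The compartments did not overlap, and Cox5a was 1.93-fold lower in PAP (log2 fold change -0.95 ± 0.25 SE, adjusted p = 0.0395, or 0.206 with the animal as a block). The call was kept under 7 of 19 alternatives, and the adjusted p was 0.108 with GC and length correction. Cox5a shares 32.05% of its 50-base stretches with 3 other genes. On the strand opposite to Cox5a (chromosome 9, 57521274 to 57532426, GRCm38) lies Gm26631, which was listed with 6520 to 8099 counts in Astro and 348 to 752 in PAP and had a log2 fold change of -0.87. Without a stated strand setting, reads of both genes cannot be told apart.

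The other widely expressed complex IV genes did not pass the edgeR test without correction for GC content and length, apart from Cox7a2 and Cox6b1 when PAP animal 3 was left out. With that correction edgeR called Cox5b (-1.19, adjusted p = 0.0465), Cox6a1 (-1.62, 0.0282), Cox6b1 (-1.77, 0.0229), Cox7a2 (-1.33, 0.0229) and Cox8a (-1.29, 0.0388) lower. DESeq2's Wald test called Cox5b, Cox7a2 and Cox7b lower. Without the correction, Cox5b, Cox7b, Cox6a1, Cox6b1, Cox6c and Cox7a2 had log2 fold changes of -0.96, -0.89, -0.88, -0.86, -0.78 and -0.68, and for each of them all PAP libraries lay below Astro. Cox8a had the highest level per kilobase in Astro of all 45 genes, 2346 CPM per kb. Cox8a was at 1267, 1387 and 1216 CPM in Astro and 448, 1213 and 1351 CPM in PAP, so that only PAP animal 1 stood below the Astro range by a wide margin. PAP animal 1 alone was below the Astro range for Cox7c, at 327 to 409 CPM in Astro and 141, 350 and 374 CPM in PAP; 53.0% of its 50-base stretches are shared with 3 other genes, so its count is uncertain.

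**Figure D3:**
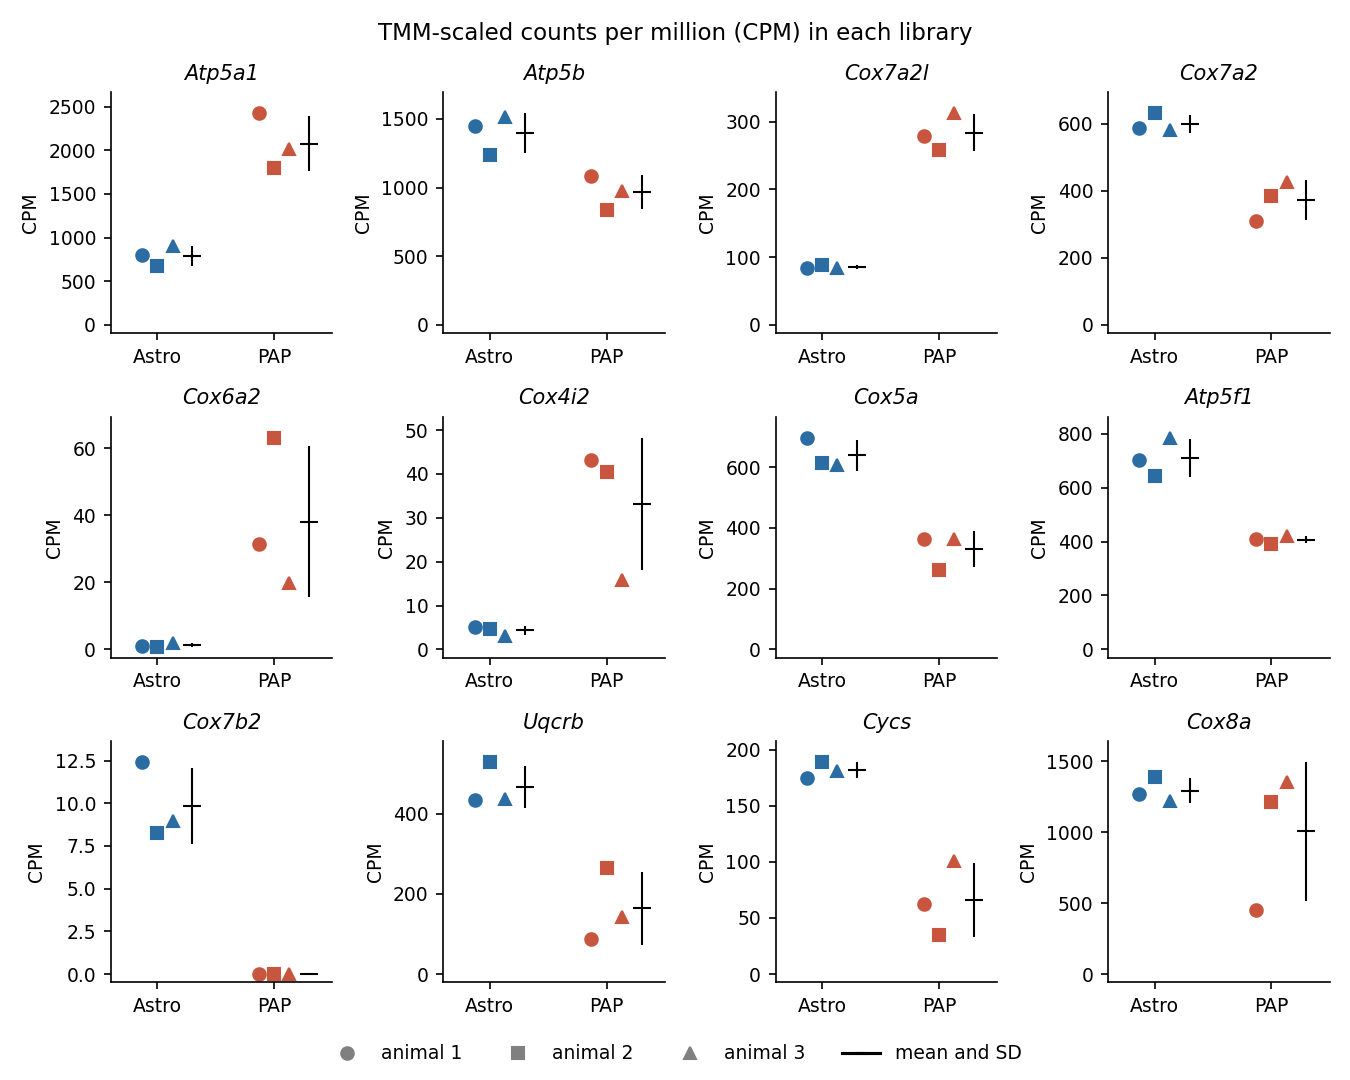
TMM-scaled CPM of 12 genes in each library, by animal, with mean and SD (n = 3) to the right of each compartment. Atp5a1, Cox7a2l, Cox6a2 and Cox4i2 lie higher in all PAP libraries than in any Astro library, Cox7b2 is at 0 in PAP, and PAP animal 1 is the low point for Cox8a at 448 CPM.

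The low values of PAP animal 1 ran through complex IV. Its library was the lowest of the 3 PAP libraries for 9 of the 10 widely expressed complex IV genes, for 5 of 9 complex III genes and 7 of 16 ATP synthase genes, and for 43.4% of all tested genes. Within animals, the median log2 ratio of PAP over Astro (with a pseudocount of 0.5 CPM) of the complex IV genes was -1.52, -0.72 and -0.35 in animals 1, 2 and 3. The complex III medians were -0.45, -0.33 and -0.26, and the ATP synthase medians were -0.33, -0.44 and -0.32. Over the 2240 tested genes with an Astro mean of at least 100 CPM, the medians were -1.38, -1.04 and -0.54 in the same order of animals. Summed astrocyte markers in PAP followed that order too, with 3720, 8114 and 12570 CPM. Summed B-lineage markers ran the other way, at 5684, 3392 and 2692 CPM, as did 5 red cell markers, at 454, 65.1 and 2.63 CPM beside 12.6 to 22.1 CPM in Astro. The part of these markers in the differences between animals was not tested. Without PAP animal 1, the median log2 fold change of the 10 complex IV genes was -0.57.

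**Figure D4:**
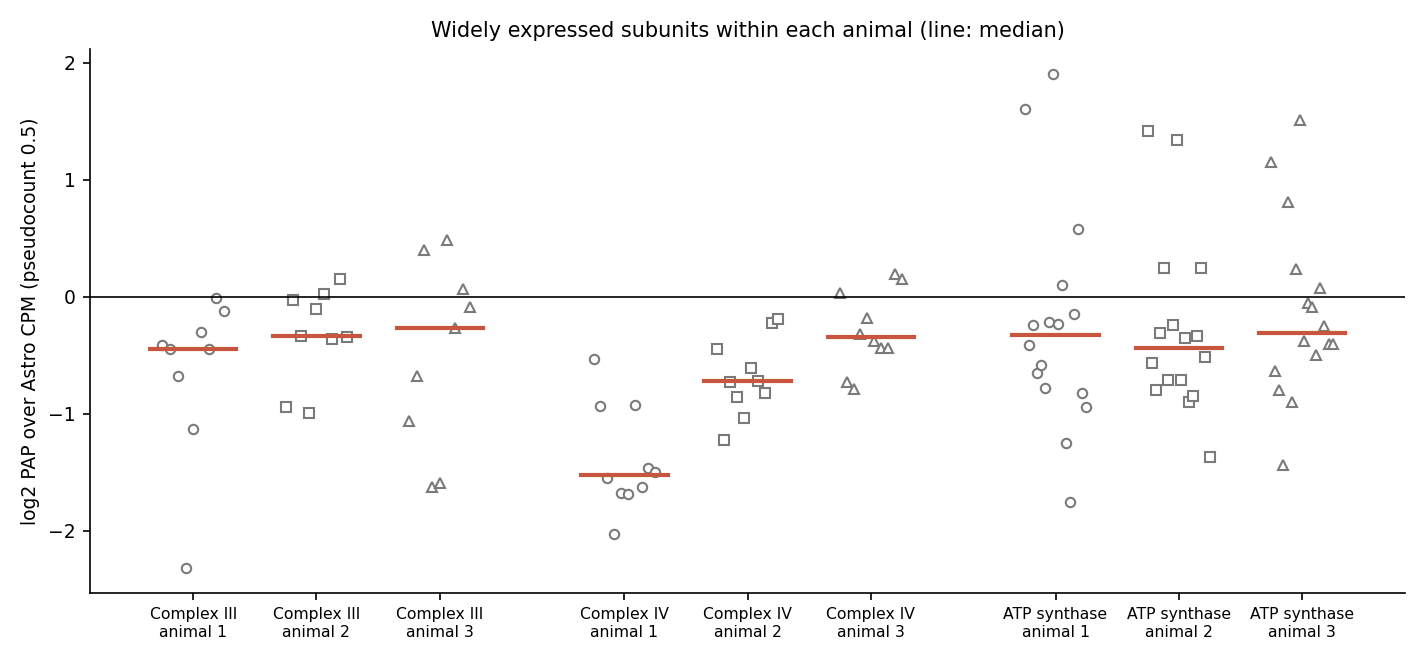
Log2 ratio of PAP over Astro CPM for each widely expressed gene of complex III (9), complex IV (10) and ATP synthase (16) within each animal, with the median as a line. The complex IV medians are -1.52, -0.72 and -0.35 in animals 1 to 3, while the ATP synthase medians lie between -0.44 and -0.32.

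Restricted isoforms of complex IV held 1 gene that rose (Cox6a2), 1 that fell (Cox7b2) and 4 that edgeR tested and did not call; over all tested genes 5.92% were called higher and 15.4% lower. Cox6a2, the heart and skeletal muscle form of subunit 6A, was at 1.12, 0.642 and 1.87 CPM in Astro and at 31.5, 63.1 and 19.7 CPM in PAP (21, 11 and 37 against 62, 123 and 60 counts). All PAP libraries were higher, also in raw counts, although they held fewer reads. The difference was 31.1-fold (log2 fold change 4.96 ± 1.03 SE, adjusted p = 0.0210, or 0.206 with the animal as a block). Without PAP animal 2 the log2 fold change was 4.33, and at equal depth, where Astro held 1, 0 and 4 counts, the call was lost (adjusted p = 0.0576). The widely expressed Cox6a1 was at 616.5, 810 and 687 CPM in Astro and 150, 448 and 551.5 CPM in PAP, and edgeR did not call it without GC and length correction (adjusted p = 0.294). Per kilobase, there were 0.149 ± 0.081 Cox6a2 transcripts per 100 of Cox6a1 in Astro and 10.8 ± 7.35 in PAP (SD, n = 3), so Cox6a1 was the more abundant form in all 6 libraries. Cox6a2 is also known from some interneurons; 12 neuron markers summed to 745 to 1317 CPM in Astro and 485 to 1520 CPM in PAP, with PAP animal 2 the highest, and none was at 0 in all PAP libraries. Among the 12, edgeR called Syt1 higher (log2 fold change 1.4, adjusted p = 0.0414) and Snap25, with 393 to 658 CPM in Astro the largest part of that sum, lower (-2.23, adjusted p = 0.0296). Camk2a lay higher in all PAP libraries (2.26, adjusted p = 0.0663). Gad1, of inhibitory neurons, was at 22.5, 31.7 and 38.1 CPM in Astro and 0, 112 and 0 CPM in PAP. Gad2, also of inhibitory neurons, was at 5.83, 20.7 and 18.5 CPM in Astro and lower in PAP, at 0.508, 5.64 and 0 CPM. Of the 12 markers, 7 had a negative and 5 a positive log2 fold change. The part of these markers in the Cox6a2 result was not tested.

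Cox4i2, a form of subunit 4 known to be induced at low oxygen and found in lung and in pericytes, was at 5.13, 4.73 and 3.08 CPM in Astro and at 43.2, 40.5 and 15.8 CPM in PAP. The compartments did not overlap, but the log2 fold change of 2.94 ± 0.87 (SE) did not pass the edgeR test (adjusted p = 0.0601). DESeq2's Wald test called Cox4i2 higher (3.02, adjusted p = 1.745e-05), and edgeR did so without any 1 of the PAP animals (adjusted p of 0.0207 to 0.0496). Its partner Cox4i1 was at 1124, 1225 and 1100 CPM in Astro and 775, 900 and 1126 CPM in PAP, with overlap. Of 8 endothelial and mural markers, Cldn5, Cdh5, Pdgfrb and Rgs5 were at 0 in all PAP libraries, and the summed level was 21.1 to 42.2 CPM in Astro and 1.52 to 12.3 CPM in PAP. Their part in this result was not tested.

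Cox7b2, a testis form of subunit 7B, was at 12.4, 8.23 and 8.94 CPM in Astro (232, 141 and 177 counts) and at 0 in all 3 PAP libraries. It was called lower (adjusted p = 0.0208, or 0.206 with the animal as a block) and was at least 7.31-fold lower, computed against a floor of 3 counts in each PAP library (a mean of 1.35 CPM). Thinned to the smallest library, the Astro libraries still held 19, 12 and 14 counts. Cox7b2 lies on chromosome 5 (71442824 to 71548205, minus strand, GRCm38).

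The other restricted forms varied among PAP animals. Cox7a1, the heart and muscle form of subunit 7A, was at 12.4, 20.4 and 17.0 CPM in Astro and at 0, 11.3 and 33.5 CPM in PAP. Cox8b, the muscle form of subunit 8, was at 14.5, 67.8 and 35.6 CPM in Astro and at 0, 27.2 and 10.5 CPM in PAP. Both were at 0 in PAP animal 1 and overlapped between compartments. At equal depth, and with 3 counts as the floor, the highest PAP library exceeded the lowest by at least 20.0 times for Cox7a1 and at least 17.7 times for Cox8b. Cox6b2, a testis form of subunit 6B, overlapped as well, at 27.0 to 51.0 CPM in Astro and 10.7 to 28.3 CPM in PAP.

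Cox7a2l codes for a protein related to the COX7A subunits that is known to help join complexes III and IV into supercomplexes, and it rose. It was at 83.3, 88.5 and 83.5 CPM in Astro and at 279, 258.5 and 312 CPM in PAP. All PAP libraries were higher, with little spread in either compartment, and the difference was 3.33-fold (log2 fold change 1.74 ± 0.29 SE, adjusted p = 0.0208, or 0.206 with the animal as a block). The related Cox7a2 was at 587, 632 and 581 CPM in Astro and 309, 384 and 428 CPM in PAP. Per kilobase there were 8.69, 8.57 and 8.81 Cox7a2l transcripts per 100 of Cox7a2 in Astro and 55.4, 41.2 and 44.7 in PAP, a ratio that does not depend on how libraries are scaled. Cox7a2l lies on chromosome 17 (83501918 to 83517330, minus strand, GRCm38) and shares 19.8% of its 50-base stretches with 1 other gene.

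In the F1 head of ATP synthase, the gene of the α subunit rose, and edgeR did not call that of its catalytic partner β. Atp5a1 (α, chromosome 18) was at 795, 674 and 905 CPM in Astro and at 2426, 1796 and 2013 CPM in PAP. All PAP libraries were higher, by 2.63-fold (log2 fold change 1.39 ± 0.22 SE, adjusted p = 0.0208), and the adjusted p was 0.1665 with the animal as a block. Atp5b (β) was at 1447, 1236 and 1512 CPM in Astro and at 1085, 836 and 975 CPM in PAP, lower in every PAP library, but with an edgeR adjusted p of 0.132; DESeq2's Wald test called it lower (-0.47, adjusted p = 0.0269).

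The F1 head holds equal numbers of α and β subunits. Per kilobase of transcript, there were 42.6, 42.3 and 46.4 Atp5a1 transcripts per 100 of Atp5b in Astro and 173.5, 166.5 and 160.1 in PAP. The ratio was therefore 43.8 ± 2.29 in Astro and 167 ± 6.71 in PAP (SD, n = 3), with no overlap and a spread far smaller than the difference. The shaft gene Atp5c1 (γ) stood at 105 ± 7.17 per 100 of Atp5b in Astro and at 101 ± 22.2 in PAP. On the strand opposite to Atp5a1 lies Haus1, a gene of the augmin complex of the spindle, with 318 to 507 counts in Astro and 124 to 310 in PAP against 11540 to 17917 and 3501 to 6121 counts for Atp5a1. Haus1 was itself called higher (log2 fold change 2.07, adjusted p = 0.0403).

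Among the other F1 genes, Atp5e (ε) had the highest level per kilobase in Astro, 946 CPM per kb. It was at 424, 432.5 and 338 CPM in Astro and 282, 514 and 595 CPM in PAP, with overlap. Atp5c1 overlapped too (log2 fold change -0.57) and was called lower by edgeR only when PAP animal 1 was left out (-0.92, adjusted p = 0.0297), and Atp5d (δ) was lower in every PAP library, at 621 to 624 CPM in Astro and 396, 502 and 229 CPM in PAP (-0.73 ± 0.33 SE, edgeR adjusted p = 0.199).

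The 4 genes of the peripheral stalk had negative fold changes, with a median of -0.76, except that Atp5h turned positive under scaling by library totals (0.03), with a mean of at least 100 counts (0.08), at equal depth (0.18, or 0.19 with the block) and without Astro animal 2 (0.04). Atp5f1, which codes for subunit b that spans from the membrane to the head, was called lower. It was at 703, 644 and 785 CPM in Astro and at 409, 392 and 420 CPM in PAP, a 1.75-fold difference (log2 fold change -0.81 ± 0.22 SE, adjusted p = 0.0419, or 0.228 with the animal as a block). The PAP libraries lay close together, below all Astro libraries. The call was kept under 6 of 19 alternatives, and with GC and length correction the log2 fold change was -0.19 (adjusted p = 0.669). Atp5f1 (chromosome 3, 105942698 to 105960099, minus strand, GRCm38) shares 38.7% of its 50-base stretches with 4 other genes, and overlaps Wdr77 and Gm42890 on the opposite strand.

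Atp5j codes for coupling factor 6, and, as the stalk gene with the highest level per kilobase in Astro (1392 CPM per kb), it was at 1144, 1258 and 977 CPM in Astro and 480, 673 and 920 CPM in PAP. Its PAP libraries were all lower, and it was called only when PAP animal 3 was left out (edgeR adjusted p = 0.0344, or 0.161 with all libraries at a log2 fold change of -0.71 ± 0.29 SE). Atp5o was likewise lower in all PAP libraries (-0.86) and was called lower by DESeq2's Wald test (adjusted p = 0.00833) and by edgeR without PAP animal 3 (0.0206), while Atp5h overlapped (-0.11). Atp5o and Atp5h share 50.3% and 50.5% of their 50-base stretches with other genes, so their counts are uncertain.

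The c ring, through which protons cross, is built from 1 protein that 3 genes encode with different import sequences. Atp5g3 was at 1268, 1215 and 1149 CPM in Astro and 1080, 740 and 884 CPM in PAP, lower in each PAP library, with an edgeR adjusted p of 0.259 (0.0495 without PAP animal 1). Atp5g1 overlapped, at 155, 255 and 205 CPM in Astro and 133, 216 and 242 CPM in PAP. Atp5g2 was at 23.9, 16.9 and 20.2 CPM in Astro and at 90.9, 43.6 and 58.2 CPM in PAP, all above Astro, and its log2 fold change of 1.66 ± 0.62 (SE) did not pass the edgeR test (adjusted p = 0.121). It was called higher by DESeq2's Wald test (1.73, adjusted p = 0.000667) and by edgeR without PAP animal 2 (1.81, adjusted p = 0.0495). Per kilobase, Atp5g3 made up 81.3% ± 3.32 of the 3 genes' sum in Astro and 72.3% ± 4.88 in PAP, and Atp5g2 made up 2.22% ± 0.418 and 8.22% ± 2.12 (SD, n = 3). All 50-base stretches of Atp5g2 and 66% of those of Atp5g1 are shared with other genes, and the length of Atp5g1 is ambiguous in the annotation, so the shares of these 2 genes are uncertain.

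Of the 4 genes for small subunits of the membrane part, Atp5mpl had the highest level per kilobase in Astro, 1383 CPM per kb. Its transcript length is ambiguous in the annotation (366 or 612 bases), so this rank is uncertain. It was at 506 ± 60.1 CPM in Astro and 338 ± 39.8 CPM in PAP (SD, n = 3), lower in all PAP libraries and not called by edgeR (adjusted p = 0.163). It was called lower by DESeq2's Wald test (-0.51, adjusted p = 0.0274) and by edgeR with GC and length correction (-1.01, adjusted p = 0.0295). Atp5j2 was also lower in all PAP libraries (log2 fold change -0.93), and Atp5k and Atp5l overlapped (-0.14 and 0.23). Atp5k was 0.01 under scaling by library totals, and with GC and length correction edgeR called it lower (-1.06, adjusted p = 0.0302). Atp5l, at 14.7 to 16.9 CPM in Astro, shares 84.8% of its 50-base stretches with 14 other genes. Atp5s, which codes for a coupling factor known as factor B, was at 107, 95.7 and 83.9 CPM in Astro and at 0, 48.2 and 1.31 CPM in PAP. All PAP libraries lay below Astro, and edgeR did not call Atp5s (log2 fold change -2.54 ± 1.76 SE, adjusted p = 0.417). At equal depth the PAP libraries held 0, 94 and 1 counts. With 3 counts as the floor they differed by at least 31.3 times, the largest such value of all 45 genes. Atp5s was called lower by voom (-5.12, adjusted p = 0.0437) and by edgeR without PAP animal 2 (-7.08, adjusted p = 0.0227).

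More than 3 counts were present for 44 of the 45 genes in each Astro library and for 40, 43 and 43 in PAP animals 1 to 3. In PAP animal 1 the genes at or under 3 counts were Atp5s, Cox7a1, Cox7b2, Cox8b and Cox8c. Over all tested genes, more than 3 counts were present for 98.7% to 98.9% in Astro and for 58.6% to 64.4% in PAP. With every library thinned to 1829962 counts, 43, 43 and 44 of the genes were above 3 counts in Astro and 40, 43 and 42 in PAP.

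The spread between PAP animals was also given by gene. The median coefficient of variation of CPM in PAP was 31.0% for complex III, 40.5% for the widely expressed complex IV genes and 27.8% for ATP synthase, beside 97.0% over all tested genes and 48% over tested genes with a mean of at least 100 CPM. In Astro the same medians were 11.3%, 7.62% and 11.4%, beside 22.1% and 12.9%. Among the 2240 tested genes with an Astro mean of at least 100 CPM, the median log2 fold change was -0.92, and it was -0.58 for the 34 of the 45 genes that reach that mean. Of these 34, PAP libraries lay all below Astro for 20, beside 49.5% of the 2240.

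Genes around these complexes were taken from lists. Complex II, which feeds electrons from succinate into the chain, had all 4 of its genes called lower by edgeR, beside 15.4% of all tested genes. Their median log2 fold change was -1.63. DESeq2's Wald test also called all 4 lower, beside 24.2%, while voom called 0 of the 4, beside 19.9%. Sdha, its flavoprotein, was at 515, 480 and 604.5 CPM in Astro and 141, 47.7 and 178 CPM in PAP (-2.12 ± 0.51 SE, adjusted p = 0.0294). Sdhc and Sdhb followed with -1.69 and -1.57. Of 37 genes listed for complex I by their Nduf symbols, edgeR called 5 lower and 0 higher, with a median of -0.86. DESeq2's Wald test called 20 of them lower and voom 0. Over all tested genes the shares called lower were 15.4%, 24.2% and 19.9% by the same 3 tools. The list also holds Ndufa4, which is assigned to complex IV (log2 fold change -1.01, edgeR adjusted p = 0.189). None of the 37 genes was higher at an unadjusted p under 0.05 by edgeR, and neither DESeq2 nor voom called any higher. The largest of the 5 by size were Ndufa8 (-1.83), Ndufs8 (-1.55) and Ndufb10 (-1.51).

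Assembly factors numbered 33 tested genes with a median of -0.35, of which edgeR called 1 higher and 3 lower, beside 5.92% and 15.4% of all tested genes, and DESeq2's Wald test called 4 and 8, beside 11.8% and 24.2%. Coa5, a factor for complex IV assembly, was at 171, 165 and 196 CPM in Astro and 310, 520 and 648 CPM in PAP (log2 fold change 1.47 ± 0.34 SE, adjusted p = 0.0270). Coa3, which helps translate and assemble a mitochondrially encoded complex IV subunit, was at 167, 189 and 184 CPM in Astro and 73.1, 79.0 and 75.3 CPM in PAP (-1.25 ± 0.33, adjusted p = 0.0396). Ttc19 and Lyrm7, which act in the maturation of complex III, were called lower and had 674, 643 and 748 and 746, 439 and 873 counts in Astro and at most 2 counts in any PAP library.

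Of 6 carriers and channels, edgeR called 1 lower and DESeq2's Wald test 2, beside 15.4% and 24.2% of all tested genes. Slc25a4, the ADP and ATP exchanger of the inner membrane, was at 1552, 1270 and 1279 CPM in Astro and 608, 508 and 677 CPM in PAP (log2 fold change -1.19 ± 0.22 SE, adjusted p = 0.0208). Of 11 nuclear regulators, Ppargc1b, a coactivator of respiratory genes, was the 1 called higher by edgeR, beside 5.92% of all tested genes, at 1.07, 1.46 and 0.455 CPM in Astro and 76.2, 8.72 and 87.8 CPM in PAP. The regulators named with the promoter words were not called: Gabpa was at 69.2 to 104 CPM in Astro and 64.6 to 101 CPM in PAP, and Nrf1 at 18.1 to 26.5 CPM and 5.13 to 67.0 CPM.

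With the animal as a block, edgeR called 0 genes of these lists at an adjusted p under 0.05. Few genes of any kind passed in that fit: among the 14618 tested, 0.876% were called higher and 0.0342% lower. At an unadjusted p under 0.05 the block fit gave 12 lower genes of the complex I list, 4 lower complex II genes, 1 higher and 4 lower assembly factors, 2 lower carriers and 1 higher regulator, beside 17.9% of all tested genes lower and 5.42% higher.

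Of 6 mitochondrially encoded subunits, mt-Co2, mt-Co3, mt-Atp6 and mt-Atp8 were listed at 0 in all 6 libraries, a value of the files that does not speak on their expression. Only mt-Cytb of complex III and mt-Co1 of complex IV were tested. The level of mt-Cytb was 17.7, 189 and 70.7 CPM in Astro and 166.5, 544 and 528 CPM in PAP, with overlap between compartments and an adjusted p of 0.163. For mt-Co1 it was 10.3, 176.5 and 33.3 CPM in Astro and 52.8, 480 and 306 CPM in PAP (adjusted p = 0.3585). Both lay higher in PAP than in Astro of the same animal, and edgeR called neither. DESeq2's Wald test called 1 of the 2 higher, beside 11.8% of all tested genes. With the animal as a block, both were higher at an unadjusted p under 0.05, beside 5.42% of all tested genes (log2 fold changes of 2.56 for mt-Cytb and 2.34 for mt-Co1).

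Some genes of the same complexes fall outside the symbol rule under the names used here. Usmg5, a membrane subunit of ATP synthase, had a log2 fold change of -0.22 ± 0.46 (SE) and Atpif1, its inhibitory factor, 0.11 ± 0.30 (SE), with adjusted p of 0.817 and 0.869.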

How the data were processed

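Per the file headers, each deposited file pairs an Ensembl gene ID with a count; the values are whole numbers with no scaling by the authors. Per the submitters' processing notes, bcl2fastq 2.18.0.12, Trim Galore 0.4.1, STAR 2.5.2b, SAMtools and HTSeq 0.5.3 were used on build mm10; strand setting and annotation release are not given in the sources used here. Symbols came from GENCODE M21 (47224 of 47643 IDs matched). Counts of 8 technical replicates were summed to 6 libraries.

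The edgeR 4.0.16 fit in R 4.3.3 compared PAP with Astro (filterByExpr, minimum count 10; TMM; quasi-likelihood test; Benjamini-Hochberg over 14618 genes; threshold 0.05). P-values measure the spread between 3 animals per compartment. The labels give both compartments of an animal the same number, which pairs them; their deviations from group means correlated at 0.03, 0.02 and -0.03. DESeq2 1.42.0 and limma 3.58.1 served as alternatives. Levels per kilobase use the principal transcript with the best support, then the shortest. Shared sequence was counted over 50-base stretches of annotated transcripts.

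Members and lists were chosen with earlier results of these data known. Values in every library are given for called members, the highest per kilobase of each role, isoform families and the 3 members with the most different PAP libraries; pathway lists show up to 3 called genes by size, and Coa3, a further called assembly factor. Other values shown were chosen after they were seen.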

Additional observations from a re-analysis of the deposited data

How the results depend on the processing

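With the replicate block (the animal as pairing), edgeR called 0 members in either direction, also with GC and length correction or at equal depth. In the same order, those fits called 133 of 14618, 118 of 14618 and 181 of 11243 genes. Of 3 members called lower, the count became 11 after GC and length correction (with Cox7b2, without Cox5a and Atp5f1), 13 by the DESeq2 Wald test, 1 by library totals alone, 1 at equal depth and 0 with a mean of at least 100 counts. Lower calls over all tested genes were 15.4% in the main fit, 15.7% after that correction and 24.2% by the Wald test. They were 2152 of 14618 by library totals alone, 993 of 11243 at equal depth and 826 of 10084 with a mean of at least 100 counts. Of 3 members called higher, the count became 5 by the Wald test, beside 11.8% of all tested genes. Leaving out 1 library gave 0 to 8 lower and 0 to 5 higher, with 0 whenever an Astro library was left out. The cause was not tested. Called members kept their direction under every alternative that tested them. The calls of Atp5a1 and Cox7a2l held in 13 of 19 alternatives each, those of Cox6a2 and Cox7b2 in 11 and 12 of 18, and those of Cox5a and Atp5f1 in 7 and 6 of 19. Of the calls over all tested genes, 27.8% were higher in PAP, 41.7% at equal depth, 41.6% with a mean of at least 100 counts, 17.1% by voom, 95.6% to 96.2% in the fits with the block and 96.1% to 99.1% without an Astro library. PAP depth limits the values of low genes.

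Directions changed for uncalled members near 0, in log2 units. Atp5g1 (-0.057) became 0.286 with GC and length correction, 0.259 with that and the replicate block, 0.009 with DESeq2 size factors, 0.01 by the Wald test, 0.085 by library totals alone, 0.126 with a mean of at least 100 counts, and 0.169 and 0.152 at equal depth without and with the block. With a mean of at least 100 counts, Uqcr11 became 0.031, Atp5h 0.08, Atp5k 0.053 and Cox7a1 0.005. At equal depth without and with the block, Uqcr11 became 0.107 and 0.066, Atp5h 0.178 and 0.189, Atp5k 0.075 and 0.082, and Uqcrq 0.015 and 0.026. By library totals alone, Atp5h became 0.033 and Atp5k 0.011. Uqcrh became -0.216 with GC and length correction, -0.228 with that and the block, -0.093 without a filter and -0.017 in technical replicates 1 to 4, and Uqcrc2 became -0.051 without a filter. Leaving out 1 library gave ranges of -0.299 to 0.159 for Atp5g1, -0.067 to 0.436 for Atp5e, -0.471 to 0.038 for Uqcr11, -0.283 to 0.207 for Uqcrc2, -0.231 to 0.037 for Atp5h, -0.044 to 0.32 for Atp5l, -0.216 to 0.009 for Atp5k, -0.108 to 0.183 for Uqcrh and -1.624 to 0.393 for Cox7a1.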
